A study of Mus musculus with 10 samples.

Results

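Interleukin-6 family cytokines, the receptor chains and transcription factor through which they act, and the SOCS proteins that feed back on them were followed in cultured mouse cells that had lost Med23, a subunit of the Mediator complex. The set was chosen by gene symbol and held 9 genes: the cytokines Il6, Lif and Il11, the receptor chains Il6st and Osmr, the transcription factor Stat3, and the feedback inhibitors Socs2, Socs3 and Cish. All 9 of the 18193 genes named on the arrays were found, through 25 of the 45101 probe sets. The samples were Affymetrix oligonucleotide arrays of total RNA, 10 in all with 1 array per condition. The study asked how Med23 bears on SRF-dependent gene expression and on differentiation into smooth muscle cells and adipocytes.

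The Med23 knockout (KO) embryonic fibroblasts (MEFs) were taken at 0 min (no serum) and after 30 and 90 min of serum, and so were the wild-type (WT) MEFs. Both came from day 9.5 embryos and had immortalised spontaneously, and the labels do not say how many lines stood behind each genotype, so genotype and line cannot be told apart. The 10T1/2 cells, an established mouse embryonic line, had received overexpression of MAL (a coactivator of SRF), knockdown of Med23, or both treatments, and the last array was the untreated control. Lower expression in all cells and fewer cells that express a gene cannot be told apart in such bulk RNA. With 1 array per condition, no value has a replicate of its own. The spread behind each test is the residual of an additive model (genotype and serum time in the MEFs, MAL and knockdown in the 10T1/2 cells), fitted with limma over all genes.

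Cytokines of this family bind receptor complexes that share the chain gp130, the product of Il6st. Interleukin-6 and interleukin-11 use it with their own alpha receptors, leukemia inhibitory factor (Lif) uses it with Lifr, and oncostatin M uses it with Osmr. Bound receptors activate JAK kinases, which phosphorylate STAT3, and STAT3 then enters the nucleus and switches on target genes that include Socs3. SOCS3 binds gp130 and JAKs and shuts the signal off, while Cish and Socs2 are best known as STAT5 target genes that restrain growth hormone and related receptors.

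The promoters of 4 members are shown, those with the largest single difference between serum and 0 min among the members. Each window runs from 250 bases before to 50 bases after the annotated start, 5′ to 3′ on the gene's own strand (RefSeq, build GRCm38.p6). Il6 is at chr5:30012864-30013163 (plus strand), Lif at chr11:4257318-4257617 (plus strand), Socs3 at chr11:117969317-117969616 (minus strand) and Cish at chr9:107296409-107296708 (plus strand). Capitals mark matches to a STAT motif (TTCNNNGAA), an AP-1 motif (TGANTCA) or the kappaB motif, searched on both strands.
Il6: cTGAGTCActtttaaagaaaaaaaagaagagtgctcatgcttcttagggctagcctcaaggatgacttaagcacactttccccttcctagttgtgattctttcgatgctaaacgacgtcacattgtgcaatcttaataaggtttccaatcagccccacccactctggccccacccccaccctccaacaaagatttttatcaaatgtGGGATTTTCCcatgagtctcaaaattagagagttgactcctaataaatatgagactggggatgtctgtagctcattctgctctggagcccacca
Lif: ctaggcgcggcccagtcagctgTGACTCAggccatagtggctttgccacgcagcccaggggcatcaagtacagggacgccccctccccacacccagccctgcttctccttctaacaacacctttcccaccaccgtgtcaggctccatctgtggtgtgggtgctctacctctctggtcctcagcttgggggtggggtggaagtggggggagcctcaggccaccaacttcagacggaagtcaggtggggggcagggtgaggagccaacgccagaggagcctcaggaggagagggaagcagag
Socs3: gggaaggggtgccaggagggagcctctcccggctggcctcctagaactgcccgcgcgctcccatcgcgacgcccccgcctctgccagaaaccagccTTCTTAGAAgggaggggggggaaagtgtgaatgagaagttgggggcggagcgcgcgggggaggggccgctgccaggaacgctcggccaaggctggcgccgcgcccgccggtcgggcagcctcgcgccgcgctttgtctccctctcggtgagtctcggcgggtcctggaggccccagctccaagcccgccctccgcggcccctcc
Cish: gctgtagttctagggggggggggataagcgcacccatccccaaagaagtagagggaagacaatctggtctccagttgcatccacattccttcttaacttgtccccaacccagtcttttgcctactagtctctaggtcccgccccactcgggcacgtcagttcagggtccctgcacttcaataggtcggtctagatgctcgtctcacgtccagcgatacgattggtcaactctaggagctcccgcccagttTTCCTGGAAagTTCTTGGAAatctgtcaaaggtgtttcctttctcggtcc

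The STAT motif was found once in the Socs3 window, with its first base at position -154 from the start, and in 2 places in the Cish window, at 1 and 12. Of 32851 promoter windows of this length in the table, 8.3% hold that motif. The AP-1 motif was found at -249 in Il6 and at -228 in Lif, and in 7.81% of all windows. The Il6 window also holds the kappaB motif at -44, which 0.411% of all windows hold. The capitalised matches do not overlap each other. Windows were given for 8 of the members. Of those not printed, Osmr held an AP-1 match at 4 and 1 of the 2 Il11 windows held one at -98, while Il6st and Stat3 had no match to these 3 motifs. A CRE motif (TGACGTCA, in 1.79% of windows) and a CArG box, the motif bound by SRF (in 1.63%), were searched as well and had no match in any member's window. A match is a description of the letters and shows neither a bound site nor a cause.

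The labels were checked on Med23 itself. Here and for every gene, the levels of a genotype are given in the order of serum time, 0, 30 and 90 min. Its log2 level was 3.30, 3.30 and 2.91 in KO MEFs, against 7.14, 7.39 and 6.90 in WT MEFs. All 3 KO levels lay below the median of their array, so the difference is at least 9.54-fold lower in KO. In the 10T1/2 cells, Med23 was 4.24 after knockdown and 3.94 after both treatments, against 5.67 with MAL alone and 5.45 in the control, a coefficient of -1.47 (SE 0.22, limma adjusted p = 0.0689). The median of all probe sets lay between 3.86 and 3.93 on the MEF arrays and between 3.64 and 3.70 on the 10T1/2 arrays. The fibroblast marker list was above the array median for 8 of 9 genes on every MEF array and 9 of 9 on every 10T1/2 array, and Thy1 was the gene below it in the MEFs. Of 7 macrophage markers, 2 were above the array median in KO MEFs and 3 in WT MEFs, and their summed linear level was 133 to 143 in KO and 361 to 702 in WT. That difference lay mostly in Cd14, the highest of the macrophage markers on every MEF array. Cd14 was at 6.25, 6.13 and 6.21 in KO and 9.28, 9.22 and 8.13 in WT. Of the other macrophage markers, Ptprc, Adgre1 and Itgam never exceeded the array median, while Csf1r exceeded it on all 10 arrays (4.26 to 4.95). Cd68 exceeded it in WT MEFs only, with a coefficient of -1.08 for KO against WT, and Lyz2 in 10T1/2 cells only. Of 4 pluripotency markers, Sox2 stood at 2.61, 2.99 and 2.87 in KO MEFs and 8.33, 7.61 and 9.11 in WT MEFs, while Pou5f1, Nanog and Zfp42 stayed below the array median on each of the 10 arrays. The part of these markers in the differences between genotypes was not tested.

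Lif was the member that differed most between the genotypes, and it was lower in KO MEFs at each serum time. Its log2 level was 4.01, 5.44 and 9.25 in KO, against 5.99, 10.08 and 11.89 in WT. Serum was followed by higher Lif in both genotypes, but after 30 min the KO level was still below the unstimulated WT level. The differences of KO from WT were -1.98, -4.64 and -2.64 in the same order, and the model coefficient was -3.09 (SE 0.47, limma adjusted p = 0.00345), which is 8.50-fold lower in KO. A second Lif probe set, 1450160_at, read 3.40, 3.49 and 6.34 in KO and 3.71, 6.31 and 8.04 in WT, with a coefficient of -1.61 (SE 0.43, limma adjusted p = 0.0289 with every probe set tested on its own). At 0 min both of its levels lay below the array median, so the genotypes cannot be ordered there by this probe set. The call on Lif held without the arrays of any 1 serum time, with adjusted p from 0.00647 to 0.0352.

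**Figure D1:**
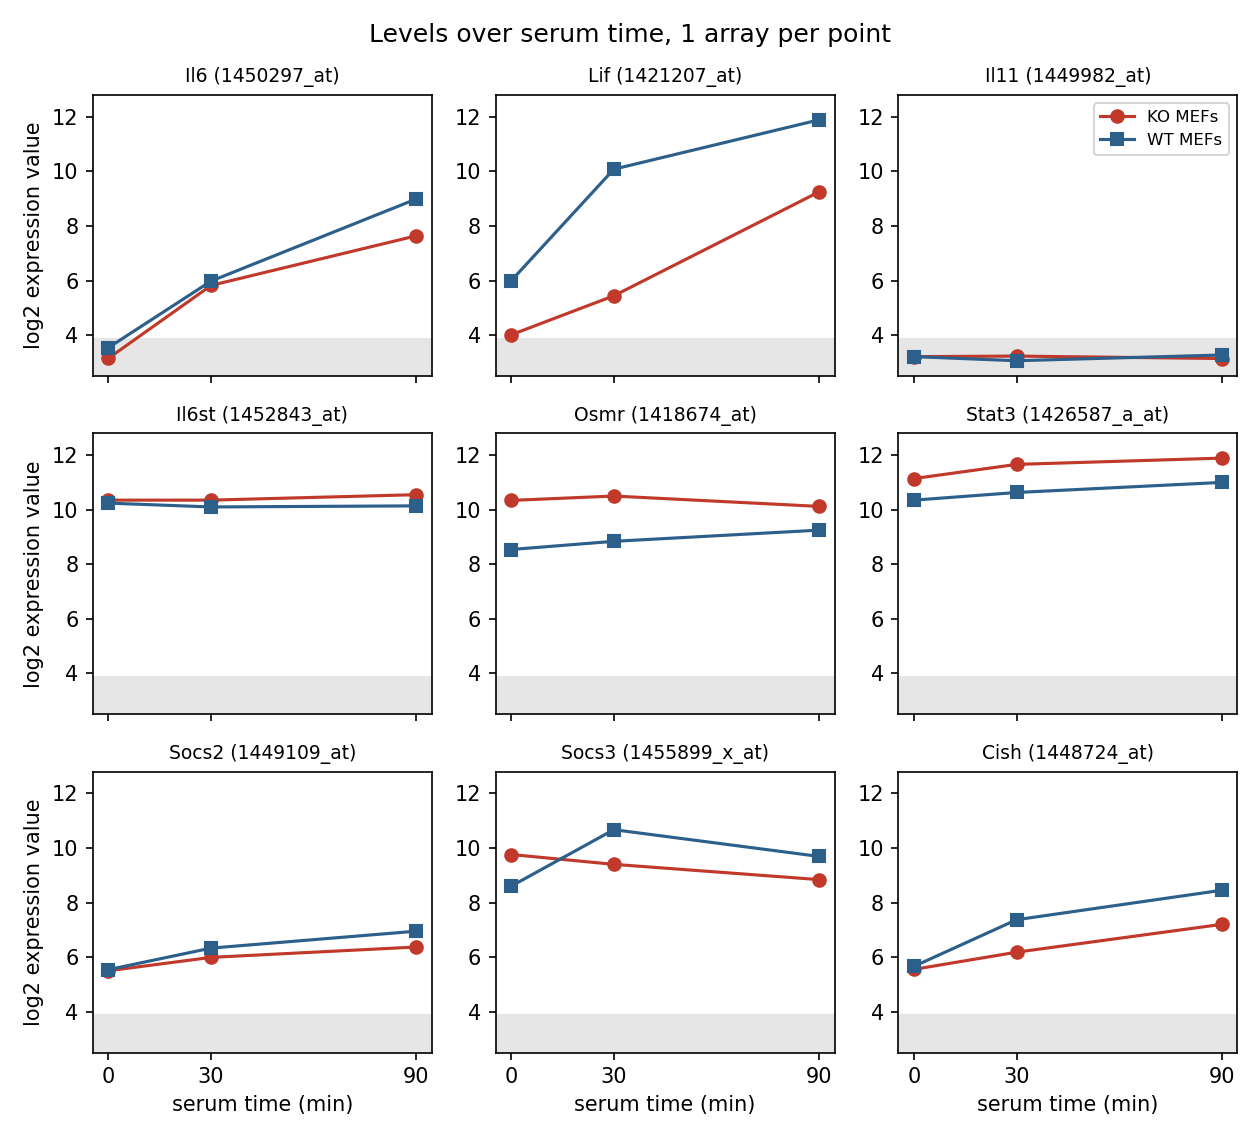
Log2 expression (vertical axis) of the 9 members against serum time in min (horizontal axis) in KO MEFs (red circles) and WT MEFs (blue squares), 1 array per point, by the probe set that stands for each gene. The grey band is the range below the lowest of the MEF array medians, 3.86. Lif runs lower in KO throughout, Osmr and Stat3 run higher in KO throughout, and the Socs3 lines cross between 0 and 30 min.

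Il6 encodes the founding cytokine of the family. It read 3.15, 5.82 and 7.64 in KO MEFs, against 3.54, 5.98 and 8.99 in WT MEFs. Both genotypes started below the array median and reached similar levels at 30 min, and at 90 min KO lay 1.35 log2 units under WT (difference -1.35). The genotype coefficient was -0.63 (SE 0.24) and did not pass the test (limma adjusted p = 0.0782). Il11, a cytokine best known from stroma and fibrosis, was at 3.21, 3.23 and 3.14 in KO and at 3.21, 3.06 and 3.27 in WT. All 10 arrays put Il11 below the array median (2.93 to 3.44), so it entered no fit and 8 members were tested.

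The receptor chain Osmr was higher in KO MEFs. It read 10.34, 10.50 and 10.12 in KO MEFs, against 8.54, 8.84 and 9.25 in WT MEFs. The lowest KO level was above the highest WT level, and the gap narrowed with serum time, with differences of 1.80, 1.66 and 0.87. The coefficient was 1.44 (SE 0.20, limma adjusted p = 0.00252), or 2.72-fold higher in KO, and the call held without any 1 serum time (adjusted p 0.00391 to 0.0399). A second Osmr probe set, 1418675_at, gave 1.56 (SE 0.16, adjusted p = 0.000863), and the third, 1459217_at, never exceeded the array median.

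Il6st, the shared gp130 chain, was at 10.35, 10.35 and 10.55 in KO MEFs and at 10.24, 10.10 and 10.14 in WT MEFs. The KO levels were above the WT levels at each time, but by no more than 0.41 log2 units, and the coefficient of 0.26 (SE 0.13) did not pass the test (limma adjusted p = 0.162). The 4 Il6st probe sets disagreed in size. Probe set 1437303_at read 10.15, 9.90 and 10.06 in KO and 9.25, 9.16 and 8.92 in WT, a coefficient of 0.93 that passed (SE 0.14, adjusted p = 0.00385), while 1421239_at and 1460295_s_at gave 0.44 and 0.49 and did not pass (adjusted p = 0.0866 and 0.0588). With the mean of all 4 probe sets, the coefficient was 0.53 and passed (adjusted p = 0.023).

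Stat3, the transcription factor on which the pathway converges, was also higher in KO MEFs. It read 11.14, 11.66 and 11.89 in KO MEFs, against 10.35, 10.63 and 11.00 in WT MEFs. No KO level overlapped a WT level, and the differences were much alike at the 3 times, from 0.79 to 1.03. The coefficient was 0.90 (SE 0.13, limma adjusted p = 0.00241), or 1.87-fold higher in KO. Of the other Stat3 probe sets, 1460700_at was higher in KO as well (0.49, SE 0.13, adjusted p = 0.027), while 1424272_at (0.16, adjusted p = 0.438) and 1459961_a_at (-0.34, adjusted p = 0.441), which read far lower, did not pass. With all 4 averaged, Stat3 no longer passed (0.30, adjusted p = 0.14).

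The feedback genes read lower in KO after serum, with support that varied between them. Cish was at 5.55, 6.18 and 7.20 in KO MEFs, against 5.66, 7.37 and 8.45 in WT MEFs. The genotypes stood 0.11 apart without serum and over 1 log2 unit apart after it, with differences of -0.11, -1.19 and -1.25. The coefficient was -0.85 (SE 0.24, limma adjusted p = 0.0325), or 1.80-fold lower in KO. This call was lost without the 30 min arrays (adjusted p = 0.203), without the 90 min arrays (0.17) and when low levels of all genes were raised to the array median (0.0806). Socs2 was at 5.50, 5.99 and 6.37 in KO and at 5.54, 6.33 and 6.95 in WT, and its coefficient of -0.32 (SE 0.15) did not pass (limma adjusted p = 0.135).

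The sign of the Socs3 difference between genotypes turned with serum. Its level was 9.76, 9.40 and 8.84 in KO MEFs, against 8.60, 10.67 and 9.69 in WT MEFs. KO cells held more Socs3 RNA than WT cells before serum (difference 1.16) and less after 30 and 90 min (-1.27 and -0.85). The additive coefficient was -0.32 (SE 0.44, limma adjusted p = 0.599). Without the 0 min arrays it was -1.06 and passed (adjusted p = 0.0223), and without the 30 min arrays it was 0.15 and did not (adjusted p = 0.851).

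Over the 8 members tested between KO and WT MEFs, 4 passed the test, Osmr and Stat3 higher and Lif and Cish lower. Of all 11933 genes tested, 42.1% passed, 21.2% higher and 20.8% lower in KO, so a count of 4 in 8 is near the background. All KO arrays lay above all WT arrays for Osmr, Stat3 and Il6st, as for 20.5% of all genes, and below them for 0 members, as for 20.7% of all genes. The median coefficient was -0.32 over the members and -0.02 over all genes. Residual SDs of the members in this fit, as moderated by limma towards those of all genes, ran from 0.15 log2 units for Stat3 to 0.58 for Lif.

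**Figure D2:**
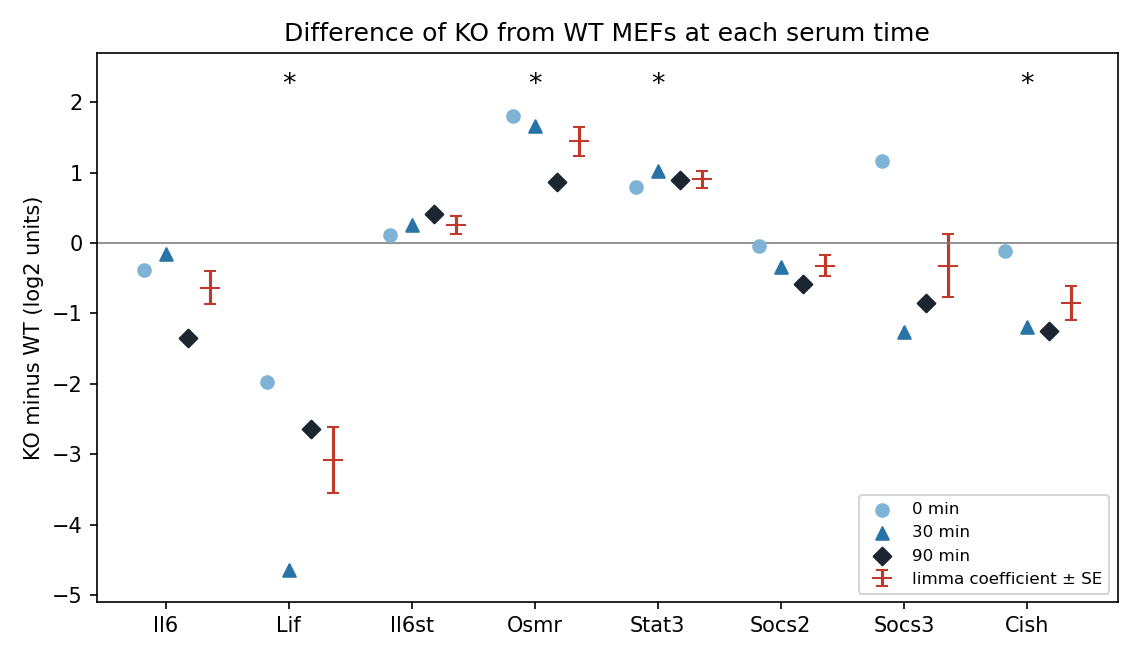
Difference of KO from WT MEFs in log2 units (vertical axis) for the 8 tested members (horizontal axis) at 0, 30 and 90 min of serum (circle, triangle, diamond), with the limma coefficient and its SE in red and an asterisk where the test was passed. Lif lies below 0 at all times, Osmr and Stat3 lie above 0, and Socs3 is at 1.16 at 0 min but below 0 after serum.

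Serum responses were read as 30 against 0 min and 90 against 0 min, with genotype in the model. At 30 min, Il6 was the member that passed, where 0.251% of all genes did and 0.235% were higher. It rose by 2.67 log2 units in KO MEFs and by 2.44 in WT MEFs, with a coefficient of 2.56 (SE 0.29, limma adjusted p = 0.0471). Because both 0 min levels lay below the array median, the rise is given as at least 3.94-fold. The call passed narrowly. With single probe sets left aside, it passed under 4 of 10 settings, the main fit among them, over a range of 0.0271 to 1. The settings that lost it included the fit without the 90 min arrays (adjusted p = 0.0591) and that with low levels raised to the array median (0.485). Lif had a larger coefficient of 2.76 but a larger error (SE 0.58, limma adjusted p = 0.223), since its difference was 1.43 in KO and 4.09 in WT.

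At 90 min, 5 of the 8 members were higher than at 0 min, where 4.56% of all genes were higher and 13.5% called in either direction. Lif rose 47.5-fold, with a coefficient of 5.57 (SE 0.58, limma adjusted p = 0.00611) and differences of 5.24 in KO and 5.90 in WT. The other Lif probe set, 1450160_at, gave a smaller 3.635 (SE 0.53, limma adjusted p = 0.0151), with both 0 min levels below the array median. Il6 rose at least 21.0-fold, with a coefficient of 4.97 (SE 0.29, limma adjusted p = 0.00221) and differences of 4.49 in KO and 5.45 in WT. Both calls held without the 30 min arrays (adjusted p = 0.0354 each). Both cytokines were also higher at 90 than at 30 min, where 1.82% of all genes were higher and 9.91% called in either direction. That coefficient was 2.42 for Il6 (SE 0.29, limma adjusted p = 0.0141) and 2.81 for Lif (SE 0.58, limma adjusted p = 0.0368). Both of these calls were lost with low levels raised to the array median (adjusted p = 0.0597 for Il6 and 0.103 for Lif). Lif also lost the call without the 0 min arrays (adjusted p = 0.0632) and by its probe set 1450160_at (2.29, SE 0.53, adjusted p = 0.0614).

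The other 3 members that rose by 90 min were Cish by 2.22 (SE 0.30, limma adjusted p = 0.0104), Socs2 by 1.14 (SE 0.18, 0.0156) and Stat3 by 0.70 (SE 0.15, 0.0355). Each of them lost the call without the 30 min arrays, at adjusted p of 0.0614 for Cish, 0.0757 for Socs2 and 0.11 for Stat3. A second Socs2 probe set, 1418507_s_at, gave 0.98 (SE 0.23, adjusted p = 0.0482), while 1446085_at gave 0.58 and did not pass (adjusted p = 0.173). None of the other Stat3 probe sets passed, with 0.56 by 1460700_at (adjusted p = 0.0776), 0.115 by 1459961_a_at (0.873) and -0.005 by 1424272_at (0.987). With all probe sets of a gene averaged, Socs2 (0.47, adjusted p = 0.0684) and Stat3 (0.34, adjusted p = 0.239) no longer passed. Il6st, Osmr and Socs3 had coefficients of 0.05, 0.24 and 0.09 at 90 min and did not pass (limma adjusted p = 0.856, 0.542 and 0.93). The median over the members was 0.92, against -0.11 over all genes.

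The serum difference itself was set against genotype. At 30 min, the difference in KO minus that in WT was -2.66 for Lif, -2.43 for Socs3 and -1.08 for Cish, and at 90 min it was -0.66, -2.01 and -1.14 in the same order. Of these 3, Socs3 was the one whose differences had opposite signs in the genotypes. After 30 min, Socs3 was 0.36 log2 units below its 0 min level in KO MEFs (difference -0.36) and 2.07 above it in WT MEFs. After 90 min the differences were -0.92 in KO and 1.09 in WT. Every Socs3 probe set showed this split, and 1416576_at read 8.60, 8.32 and 7.95 in KO against 7.77, 10.30 and 8.71 in WT. The 2 others, whose _x_at names mark probes that may also bind similar transcripts, had 30 min differences of -0.36 and -0.65 in KO and 2.07 and 1.39 in WT.

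A fit with a term for genotype by any serum, added after the data were seen, tested that split with 1 residual degree of freedom. For Socs3 the serum response in KO minus that in WT was -2.22 (SE 0.36, unadjusted p = 0.00155), for Cish -1.11 (SE 0.32, unadjusted p = 0.0174) and for Lif -1.66 (SE 0.84, unadjusted p = 0.104). None passed after adjustment over all genes (limma adjusted p = 0.999 each). The other Lif probe set, 1450160_at, gave -1.95 (SE 0.53, unadjusted p = 0.0124, adjusted p = 0.999), with its KO levels at 0 and 30 min and its WT level at 0 min below the array median. Of all 11933 genes, 0 passed, or 0.0%, and 199 had an unadjusted p below 0.05, among them 2 of the 8 members. Cish was 0.63 above its 0 min level in KO and 1.71 in WT after 30 min, and 1.65 and 2.79 above it after 90 min. The 2 genotypes share neither arrays nor controls in these differences, but each difference rests on 2 arrays. Within a genotype, the 30 and 90 min differences share the same 0 min array, so they do not repeat each other independently.

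**Figure D3:**
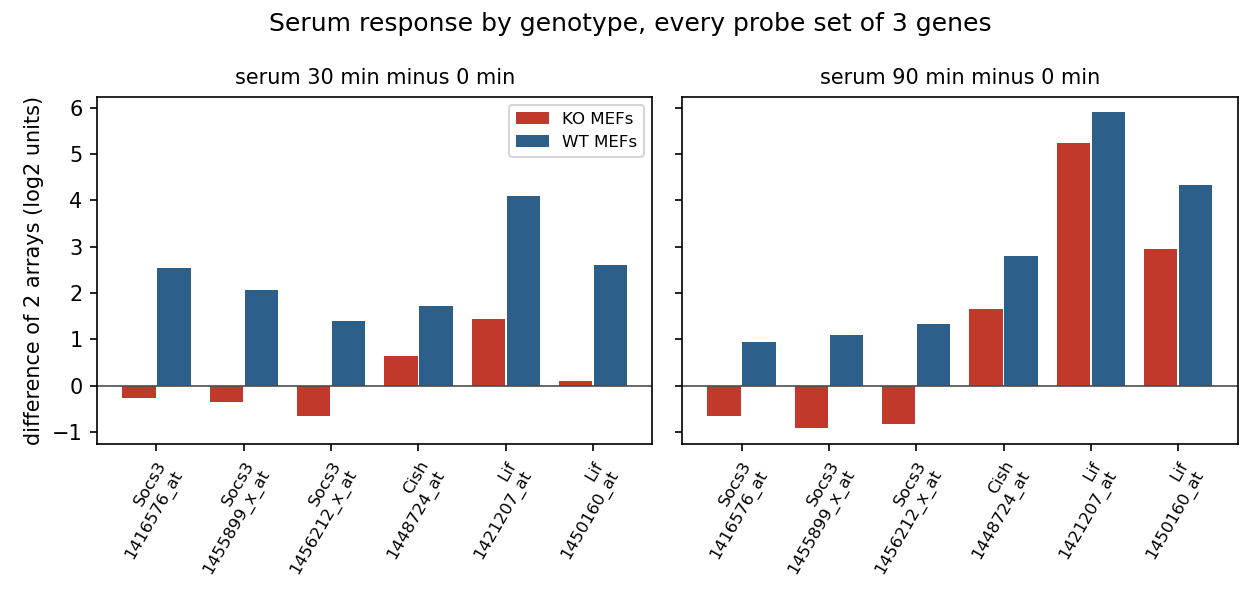
Difference between serum and 0 min in log2 units (vertical axis) for every probe set of Socs3, Cish and Lif (horizontal axis), after 30 min (left) and 90 min (right), in KO MEFs (red) and WT MEFs (blue); each bar is the difference of 2 arrays. All 3 Socs3 probe sets lie below 0 in KO and above 0 in WT at both times.

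In 10T1/2 cells, Il11 was below the array median, Lif ranged from 3.46 to 4.43, and Il6 reached 5.09 in the control. The probe sets that stand for the receptor and feedback genes were well above the array median. Another Osmr probe set, 1418675_at, fell below it with MAL and with knockdown. Socs3 read 9.63 with MAL, 9.94 with knockdown, 8.45 with both and 10.57 in the control. Each treatment alone gave a level below the control, and both together gave the lowest. The MAL coefficient was -1.22 (SE 0.22, limma adjusted p = 0.0728) and the knockdown coefficient -0.91 (SE 0.22, limma adjusted p = 0.0896), and neither passed. The probe sets 1416576_at and 1456212_x_at read the same order, from 6.95 and 7.58 with both treatments to 8.98 and 9.54 in the control. Cish had the same order of the 4 arrays, at 6.38 with MAL, 6.53 with knockdown, 5.95 with both and 6.94 in the control (limma adjusted p = 0.137 for MAL and 0.189 for knockdown).

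Osmr read 6.66 with MAL, 7.66 with knockdown, 8.91 with both and 7.44 in the control. MAL alone lay 0.78 below the control (difference -0.78), while both treatments lay 1.25 above knockdown alone. The additive coefficients were 0.24 for MAL (SE 0.50, limma adjusted p = 0.799) and 1.24 for knockdown (SE 0.50, limma adjusted p = 0.168). Il6st was higher with knockdown on both pairs of arrays, at 9.33 with MAL, 10.26 with knockdown, 9.97 with both and 9.47 in the control. Its knockdown coefficient of 0.72 (SE 0.19) did not pass (limma adjusted p = 0.0944).

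Il6 was above the array median on the arrays of knockdown (3.71) and the control (5.09) and below it with MAL (3.47) and with both (3.43). Its coefficient was -0.95 for MAL (SE 0.36, limma adjusted p = 0.173) and -0.71 for knockdown (SE 0.36, limma adjusted p = 0.233). Lif was at 4.43 with MAL, 3.46 with knockdown, 3.93 with both and 3.67 in the control. Stat3, from 10.30 to 10.76, and Socs2, from 9.20 to 9.43 in the treated cells and 9.15 in the control, varied little over the 4 arrays. No member passed for MAL, where 8 of 12440 genes (0.0643%) passed and 3432 had an unadjusted p below 0.05, among them 4 members. For knockdown, limma called 0 of 12440 genes (0.0%), with 3972 at an unadjusted p below 0.05, among them 2 members.

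**Figure D4:**
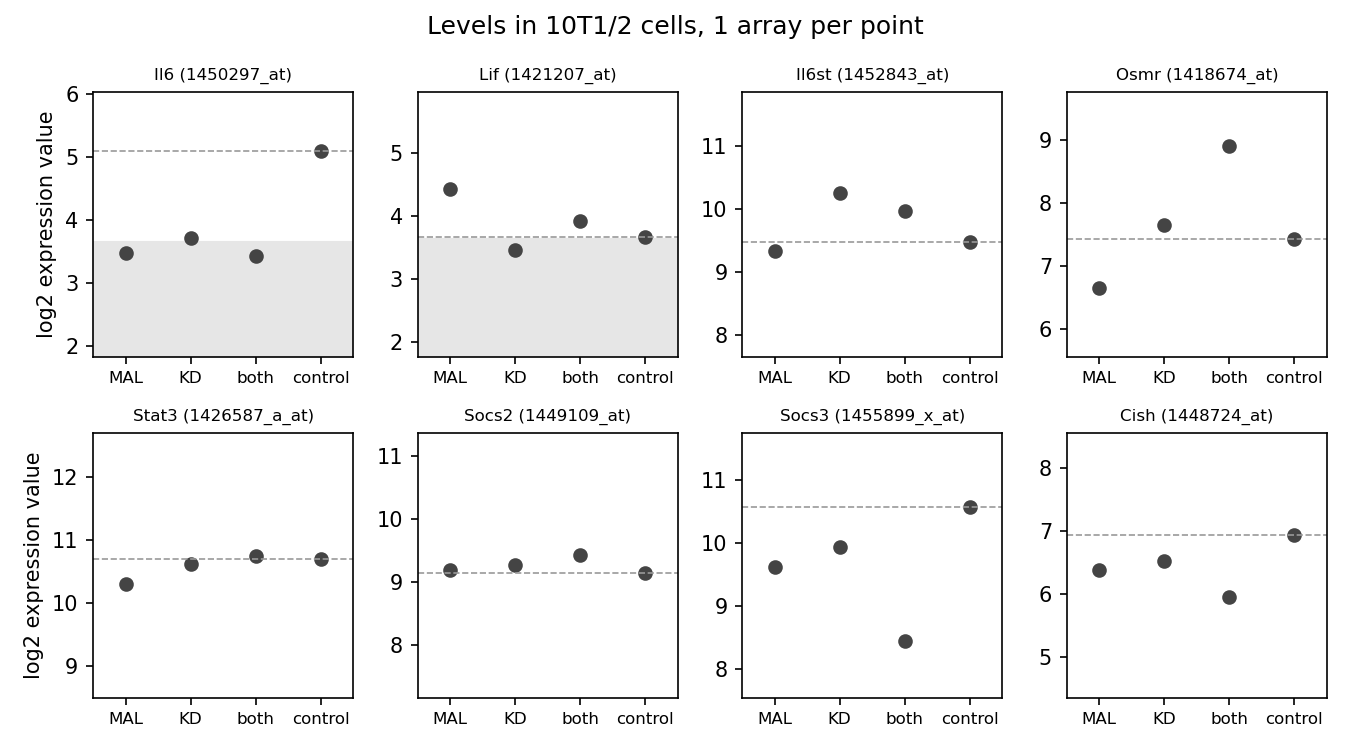
Log2 expression (vertical axis) of the 8 tested members in 10T1/2 cells with MAL overexpression, Med23 knockdown (KD), both, and the untreated control, 1 array per point. The control level is a dashed line, and the range below the lowest of the 10T1/2 array medians, 3.64, is in grey. Every panel spans the same number of log2 units. Socs3 is lowest with both treatments (8.45) and Osmr is highest there (8.91).

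Set side by side, the untreated 10T1/2 control and the WT MEFs at 0 min lay over 1 log2 unit apart for the members named next. Socs2 (9.15 in 10T1/2 and 5.54 in MEFs), Socs3 (10.57 and 8.60) and Cish (6.94 and 5.66) were higher in 10T1/2, and so was Il6 (5.09 and 3.54, the MEF level being below the array median). Lif (3.67 in 10T1/2 and 5.99 in MEFs) and Osmr (7.44 and 8.54) were lower in 10T1/2. These are single arrays of cells grown under different conditions, no source used here says whether they were normalized jointly, and no test was made. The share of all genes this far apart was not counted.

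Other genes of the pathway were read from lists by role, to be set against the 21.2% of all genes called higher and the 20.8% called lower in KO. Among 3 other ligands tested, Clcf1, a gp130 ligand, was lower in KO MEFs (-0.55, SE 0.15, limma adjusted p = 0.0302), a call lost without the 0 min (adjusted p = 0.186) or the 30 min arrays (0.186). Osm, the ligand of Osmr, was at 4.24, 4.25 and 4.24 in KO and 4.29, 4.29 and 4.24 in WT and did not pass (adjusted p = 0.863). Among 3 other receptors, Lifr, the partner of gp130 for Lif, was higher in KO, at 8.74, 8.70 and 8.23 against 5.45, 4.57 and 5.29 in WT, a coefficient of 3.45 (SE 0.23, limma adjusted p = 0.000143). Il6ra, the interleukin-6 receptor, was at 3.83, 4.22 and 5.41 in KO and 5.99, 6.50 and 6.09 in WT (coefficient -1.71, limma adjusted p = 0.00712), and lost the call without the 0 min (0.0504) or the 30 min arrays (0.0723). Lif and its receptor thus differed in opposite directions between KO and WT MEFs.

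Among 8 JAK and STAT genes tested, 2 were higher and 4 lower in KO, where 42.1% of all genes were called in either direction, with a median of -0.50. Stat5a, which acts downstream of growth hormone and prolactin receptors, was at 5.03, 5.01 and 4.89 in KO and 6.95, 7.08 and 7.15 in WT (coefficient -2.08, SE 0.13, limma adjusted p = 0.000108). Stat6, the interleukin-4 transcription factor, was lower by -1.06 and the kinase gene Jak3 higher by 1.18, and these calls held without any 1 serum time. Jak1 (0.44), Jak2 (-0.55) and Stat5b (-0.68) each lost the call without the 0 min or the 30 min arrays. Jak2 also lost it without the 90 min arrays (adjusted p = 0.053). Of 13 other inhibitors, 0 were higher and 5 lower, a count near that background of 42.1%, and Socs5 had the strongest change (-1.13, SE 0.14, limma adjusted p = 0.00137). The others, Socs7, Pias2, Pias4 and Ptpn11, had coefficients from -0.62 to -0.40 and each lost the call without the 0 min or the 30 min arrays. Socs7 also lost it without the 90 min arrays (adjusted p = 0.0715).

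Of 17 tested genes known as STAT3 targets, 10 were lower and 2 higher in KO MEFs, where 20.8% and 21.2% of all genes were, with a median of -1.06 against -0.02 over all genes. Lcn2, which encodes the iron-siderophore carrier lipocalin 2, was at 2.93, 3.28 and 3.35 in KO and at 8.99, 9.02 and 10.48 in WT (coefficient -6.31, SE 0.27, limma adjusted p = 2.37e-05), and its KO levels lay below the array median. The acute phase gene Saa3 (-2.55), the cyclin gene Ccnd1 (-2.41), the transcription factor gene Cebpb (-2.05) and the protease inhibitor gene Timp1 (-1.19) were lower in KO too, with or without any 1 serum time. The other lower genes, Bcl2l1, Bcl3, Junb, Mcl1 and Vegfa, each lost the call without the arrays of at least 1 serum time. Fos (1.10) and Hif1a (0.89) were higher, and both lost the call without the 30 min arrays (adjusted p = 0.069 and 0.0721). Hif1a also lost it without the 0 min arrays (0.0606). Most of these genes answer to other factors as well, so the list is no readout of STAT3 alone. The list was also chosen with earlier results of these data known, so its counts in any comparison are a description. Of 4 growth hormone and STAT5 genes, Ghr (-0.63) and Igf1 (-0.68) were lower, and both lost the call without the 0 min arrays (adjusted p = 0.0699 and 0.0887). Ghr also lost it without the 30 min arrays (0.0631). Over all lists, 28 genes passed between KO and WT, and 18 of them lost the call without the arrays of at least 1 serum time.

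**Figure D5:**
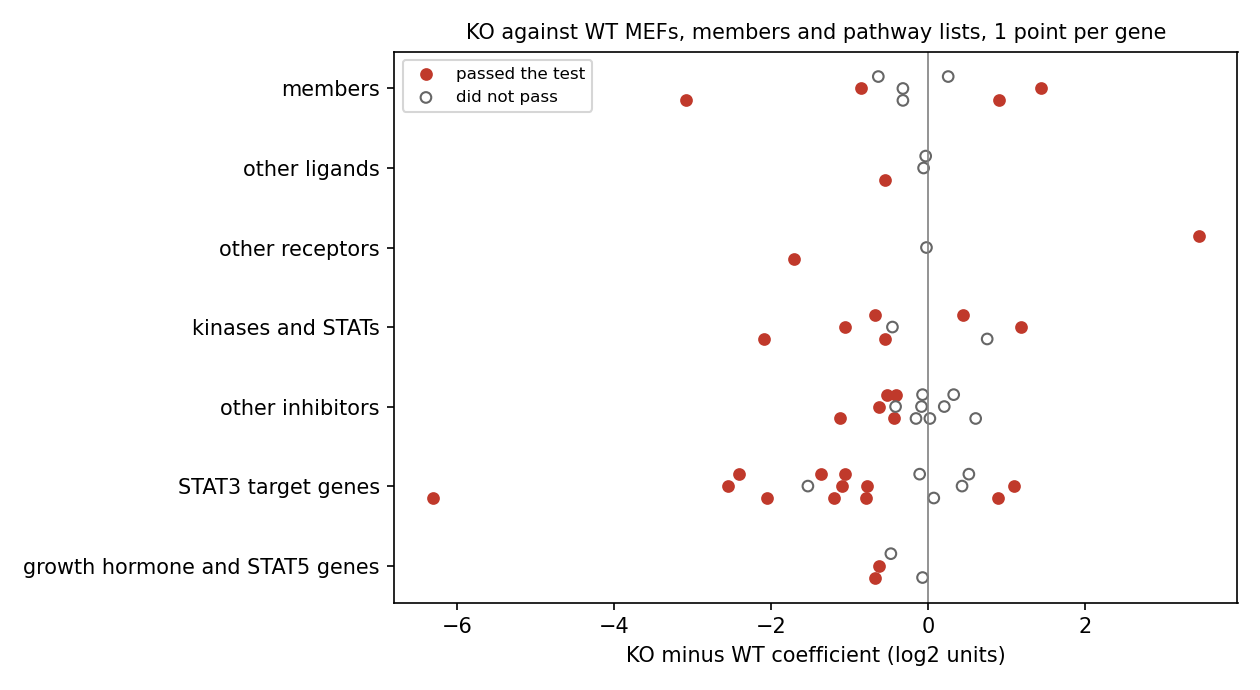
Coefficient of KO minus WT MEFs in log2 units (horizontal axis) for the members and each pathway list (rows), 1 point per tested gene, filled red where the limma test was passed and open where it was not. Of the STAT3 target genes, 10 filled points lie left of 0 and 2 right of it, and Lcn2 (-6.31) and Lifr (3.45) are the outermost points.

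After 90 min of serum, Clcf1 rose by 2.29 (SE 0.19, limma adjusted p = 0.00501), Jak2 by 0.88, Socs5 by 1.10 and Socs6 by 1.02, and the phosphatase genes Ptpn1 and Ptpn2 by 0.61 and 0.62. Of the 17 STAT3 targets, 6 were higher and 1 lower, where 4.56% of all genes were higher and 13.5% called in either direction, with Vegfa (2.66), Timp1 (2.04) and Cebpb (2.02) among the higher ones. Of the 14 listed genes called at 90 min, 13 lost the call without the 30 min arrays, and Junb (2.75) was the one that kept it. After 30 min, Fos (6.33) and Junb (4.53) were higher and no other listed gene passed. In 10T1/2 cells no listed gene passed in either comparison. The STAT3 target median there was -0.95 for MAL against -0.03 over all genes, and Lcn2 was at 2.84 with MAL, 5.73 with knockdown, 3.64 with both and 8.17 in the control.

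The genes whose pattern lay closest to each member over the 6 MEF arrays were found by the root mean square difference of log2 levels centred on each gene's mean, among 5290 genes. Il6 lay closest to Noct (0.50) and Plaur (0.68), the urokinase receptor gene, and Lif to the growth factor gene Hbegf (0.98) and the prostaglandin receptor gene Ptger4 (1.07). Hbegf read 3.71 (below the array median), 7.08 and 10.80 in KO and 8.76, 11.98 and 12.49 in WT. Osmr lay closest to Rnd3 (0.08), Stat3 to Lbr (0.11), Socs2 to Ddx5 (0.09) and Cish to the choline kinase gene Chka (0.18). Socs3 lay closest to Nfatc1 (0.35). Nfatc1 read 5.47, 5.51 and 5.25 in KO and 5.22, 6.38 and 5.50 in WT, with the highest level on the WT 30 min array as for Socs3. The points are 6 arrays shared by all genes, and the distances are a description.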

How the data were processed

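Biotin-labelled cRNA from the total RNA of 10 cultures was measured on Affymetrix arrays, per the labels' protocols. The authors deposited log2 expression levels of 45101 probe sets. The submitters' processing notes list RMA and MAS5 with no role or version, and no source used here tells whether MEF and 10T1/2 arrays were normalized jointly. Gene names came from the platform annotation, updated through Entrez identifiers to RefSeq (GRCm38.p6): 34945 probe sets had 1 symbol, 932 several, and 9160 were unnamed.

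For each gene, the probe set of highest mean over the 10 arrays stood for it, and other probe sets of a member were tested on their own. A gene was tested where its highest level in the fit was above the median of all values there (3.90 in MEFs, 3.67 in 10T1/2 cells), leaving 11933 and 12440 genes. limma 3.58.1 (lmFit, eBayes) in R 4.3.3 fitted genotype and serum time in the MEFs (2 residual degrees of freedom) and MAL and knockdown in the 10T1/2 cells (1 residual degree of freedom), and was tested on simulated data. p-values were two-sided, adjusted by the Benjamini-Hochberg method over all genes tested, with a threshold of 0.05. The labels name no separate cultures as replicates, so p-values measure only the spread around an additive model, which may be technical. An array gives no read depth, and precision is limited by how few arrays there were. Where a fold rests on levels below the array median, they were raised to that median and the fold is written "at least". Coefficients are as measured.

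The members, the lists and the alternatives were chosen with earlier results of these data known. The genes named were the members, Med23, pathway list genes past the test or with the largest coefficients, and for each member with a range of at least 1 log2 unit the 3 nearest genes, of which up to 2 are printed. Osm was named as the ligand of Osmr after its values were seen, and the marker genes and the members compared between cell types were also named after theirs were seen.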

Additional observations from a re-analysis of the deposited data

Results flagged for a closer look

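The serum response of Socs3 in KO minus WT MEFs was -2.22 log2 units. It drew attention because both KO arrays after serum lay below the KO 0 min array (9.40 and 8.84, against 9.76), while both WT arrays lay above theirs (10.67 and 9.69, against 8.60). The term for genotype by any serum had an unadjusted p of 0.00155 and a limma adjusted p of 0.999. With single probe sets left aside, the coefficient stayed between -2.22 and -2.17 over 7 settings, the main fit among them. The smallest adjusted p among these was 0.202.

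Osmr moved in opposite directions with MAL in 10T1/2 cells, at -0.78 without knockdown and 1.25 with it, a difference of 2.03. Its probe set 1418675_at read 3.61 with MAL and 3.19 with knockdown, both below the array median, so its differences are only bounds. With 4 single arrays this difference was not tested.

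Socs2 was lower in KO than in WT MEFs at each serum time (-0.04, -0.34 and -0.58) and higher with knockdown in both pairs of 10T1/2 arrays (0.13 and 0.23). The coefficients were -0.32 and 0.18, a difference of -0.50 that was not tested, and neither passed on its own (limma adjusted p = 0.135 and 0.523).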

How the results depend on the processing

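Alternatives changed the normalization, the filter, the choice of probe set, low levels, the variance model, the arrays and the terms of the fit. Between KO and WT MEFs, where 5018 genes and 4 members passed, 2680 genes passed without the 0 min arrays, 2398 without the 30 min arrays and 2857 with no term for serum time, which left 2 members. Stat3 turned to -0.34 by probe set 1459961_a_at and Socs3 to 0.15 without the 30 min arrays. With single probe sets left aside and the main fit counted, there were 12 settings. Osmr passed under all 12, Lif under 11 (all but no term for serum time, adjusted p = 0.267), Stat3 under 11 and Cish under 8.

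For serum at 30 against 0 min, the 30 genes called became 13 with the mean of all probe sets, 2 with low levels raised, 59 with a trend on mean level, 58 in 1 fit over all 10 arrays, 10 without the 90 min arrays and 0 with no term for genotype. The 1 member called became 0 under quantile normalization, without the filter, with the mean of all probe sets, with every probe set on its own, with low levels raised, without the 90 min arrays and with no term for genotype. At 90 against 0 min, 1612 genes became 819 with low levels raised, 18 without the 30 min arrays and 0 with no term for genotype. The 5 members became 3 with the mean of all probe sets, 2 without the 30 min arrays and 0 with no term for genotype. At 90 against 30 min, 1183 genes became 768 with the mean of all probe sets, 119 with low levels raised, 139 without the 0 min arrays and 0 with no term for genotype. The 2 members became 1 with the mean of all probe sets and without the 0 min arrays, and 0 with low levels raised and with no term for genotype. The genotype by serum term called 0 genes and 4 under quantile normalization.

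The counts in 10T1/2 cells moved most. For MAL, 8 genes became 2014 under quantile normalization, 587 with the mean of all probe sets, 542 with a trend and 2350 in 1 fit over all 10 arrays, and 0 with median centring, without the filter, with every probe set on its own and with low levels raised. The 0 members became 2 under quantile normalization (Socs3 and Il6) and 1 with the mean of all probe sets and with a trend (Socs3 in each). For knockdown, 0 genes became 2472 under quantile normalization, 340 with the mean of all probe sets, 599 with a trend and 2812 in 1 fit over all 10 arrays, and the 0 members became 3 (Il6st, Osmr and Socs3) under quantile normalization and 1 (Il6st) in 1 fit over all 10 arrays.

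Other coefficients changed sign too, and of these only that of Stat3 at 90 against 0 min had passed. At 30 against 0 min, Stat3 was -0.085 by 1424272_at. At 90 against 0 min, Il6st was -0.0183 under quantile normalization and -0.21 by 1437303_at, and Stat3 was -0.005 by 1424272_at. At 90 against 30 min, Il6st was -0.04 by 1437303_at, Osmr -0.025 with median centring, Stat3 -0.17 with the mean of all probe sets and -1.31 by 1459961_a_at, and Socs2 -0.18 by 1446085_at. The genotype by serum term of Stat3 was -0.36 by 1459961_a_at. For MAL, Il6st was 0.35 by 1437303_at, Stat3 0.02 by 1424272_at and 0.10 by 1459961_a_at, and Socs2 -0.0792 with the mean of all probe sets, -0.13 by 1438470_at and -0.72 by 1446085_at. For knockdown, Osmr was -0.085 by 1418675_at, Stat3 -0.13 by 1424272_at, and Socs2 -0.035 by 1442586_at and -0.11 by 1446085_at. The cause was not tested. Of 606 member coefficients under alternatives, 539 kept their direction and side of the threshold. Testing all genes without the filter moved the median of 90 against 30 min by 0.115, to -0.015. The labels give no replicate numbers, so no replicate block was fitted. The test of KO against WT pairs the genotypes by serum time, and the fit with no term for serum time lacks that pairing. Levels below the array median limit what can be said of Il11, of Il6 without serum and of Lif in 10T1/2 cells.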
